A study of Bos taurus with 20 samples.

Results

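The proteasome subunit genes were chosen by name, as all non-control probes of the array whose gene symbol begins with PSMA, PSMB, PSMC, PSMD, PSME or PSMG. This gave 48 of the 22550 genes or transcripts measured, with 120 spots that carry 100 distinct probes of 60 bases. Of the 48, 47 code for proteasome subunits, activators or assembly chaperones, and 1, PSMC3IP, shares the prefix only and codes for a factor of meiotic recombination. Gene expression was measured on 20 one-color arrays of bovine (Bos taurus) ovarian cells from follicles of 3 to 6 mm. Oocytes, the cumulus cells around them (CC), the granulosa cells of the follicle (GC) and its theca (TH), all at the immature stage, were each hybridized on 4 arrays, and 4 further arrays held CC that had undergone maturation in vitro (IVM) for 4 h. TH were scraped from the walls of punctured follicles of slaughtered animals, so other cells of the wall can be in those samples. Whether replicates came from separate animals or pools is not given in the labels, and p-values measure the spread between these samples.

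The proteasome degrades proteins tagged with ubiquitin. Its core particle is a stack of rings, in which the outer alpha rings gate the entry and the inner beta rings hold the catalytic sites. A regulatory cap binds the alpha ring, with a base whose ATPases unfold the substrate and a lid that removes ubiquitin. In immune and stimulated cells, inducible beta subunits replace the catalytic ones and form the immunoproteasome, which cuts peptides for antigen presentation. Oocytes rely on the proteasome for the meiotic divisions and for clearing stored proteins.

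The probes of 5 genes on which the results turn are shown here by 30 of their bases, as the array files give them. PSMA1 (transcript at chr15:38745761-38758646 of UMD 3.1) and PSMA2 (chr4:78821820-78832470) had the widest oocyte differences of the alpha ring. PSMD9 (chr17:55672659-55687404) rose most of the base chaperones. PSMA8 (chr24:30986486-31007475) and PSMD11 (chr19:18035610-18064853) are the genes whose probes lay furthest apart. In the PSMA1 pair, capitals mark the 10 bases that both probes share, and in PSMA2 and PSMD9 they mark AATAAA, the polyadenylation signal. No base is marked in the others, and strand, exon and UTR were not assigned, since an annotation of UMD 3.1 was not used here.
PSMA1 probe 1, bases 31 to 60: atcagttcagatgtgagtttTTCCTAAGCT
PSMA1 probe 2, bases 1 to 30: TTCCTAAGCTgccaccaaaaccatataatt
PSMA2 probe 2, bases 31 to 60: acgtgagtgctggaAATAAAatactaatac
PSMD9 probe 2, bases 31 to 60: aatcttttgttttcctcaAATAAAcgcagt
PSMA8 probe 1, bases 1 to 30: atggcttttgcaggaagacttcattattct
PSMA8 probe 2, bases 1 to 30: tgccaagcttcaagatgaaagaactgtgag
PSMD11 probe 1, first transcript only, bases 1 to 30: atcttcagtgcttgtgtgtctaatccttgc
PSMD11 probe 2, both transcripts, bases 1 to 30: tttggtgcatctgtattccagccgataggt
PSMD11 probe 3, other transcript only, bases 1 to 30: gggaaaatgctaggagattcttttttcttt

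All 48 genes had more than 1 probe, but in 24 of them probes overlapped by at least 8 bases. The overlap ran from 10 of the 60 bases (PSMA1) to 59 (PSMC1 and PSME2), where the probes read nearly the same stretch. AATAAA or its variant ATTAAA stood in 22 of the 100 probes (22.0%) and in 10.9% of all 51307 probes. On the opposite strand the same letters stood in 6.0% and 5.16%. A match describes the letters only.

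A level here is the log2 intensity of a gene minus the 75th percentile of its array, so 0 is the brightness of that percentile. Levels of different genes are not compared, because probes differ in brightness. The 75th percentile was 368 to 1101 intensity units on the TH, GC and CC arrays, 284 to 396 after IVM, and 1521 to 2889 on the oocyte arrays, and 49.3 to 68.7% of probes were well above background. On the linear scale of the level, theca markers summed to 575 to 831 in TH, 29.8 to 115 in GC and at most 32.6 elsewhere. Granulosa markers summed to 110 to 451 in GC, 381 to 393 in CC, 625 to 769 after IVM and 18.1 to 33.4 in TH. Of these 4 markers, 1 was higher after IVM than in CC (30.3% of all genes were) and 3 were lower (15.5% of all genes). The larger sum after IVM was thus not shared by most of the list. Oocyte markers summed to 248 to 330 in oocytes and at most 3.01 elsewhere. The labeled cell types thus carried their markers, with some theca signal in GC, whose part in the comparisons was not tested. Of the 48 genes, 43 were well above background on all 20 arrays. The same arrays recurred as extremes across the genes: CC replicate 1 was the lowest CC array for 40 of the 48, GC replicate 4 the highest GC array for 38, and IVM replicate 1 the highest IVM array for 32. GC replicate 2 was the lowest GC array for 33, TH replicate 3 the lowest TH array for 32 and TH replicate 4 the highest for 28.

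By the F-test of limma over TH, GC, CC and oocytes, 43 of the 48 genes differed (89.6%, against 71.3% of all genes). Against the mean of the somatic cells, 17 genes were higher in the oocyte (35.4%, against 32.9% of all genes) and 23 lower (47.9%, against 38.3%). Of these, 14 and 16 had no oocyte array within the span of the 12 somatic arrays, as had 25.3% and 20.6% of all genes. The split depended on the scaling: with the deposited log2 table, from which background was not subtracted, 24 were higher and 13 lower. Within slide 1 the counts were 15 and 16, and within slide 2 they were 15 and 19. The split also depended on the somatic cell type. Against TH alone 18 were higher and 16 lower, against GC alone 14 and 21, and against CC alone 15 and 25. Shares of all genes under these settings and pairs are not given, so these counts do not separate the 48 genes from the whole array. Levels are relative to each array, and less RNA per cell cannot be told apart from fewer cells of a type in the sample. The median of all genes was itself shifted, by -0.52 in the oocyte comparison and by 0.37 in the IVM comparison, while genes above background on all arrays shifted by 0.19 and 0.05. The median of the 48 genes was -0.23 in the oocyte, 0.00 under quantile normalization and 0.31 in the deposited table.

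**Figure D1:**
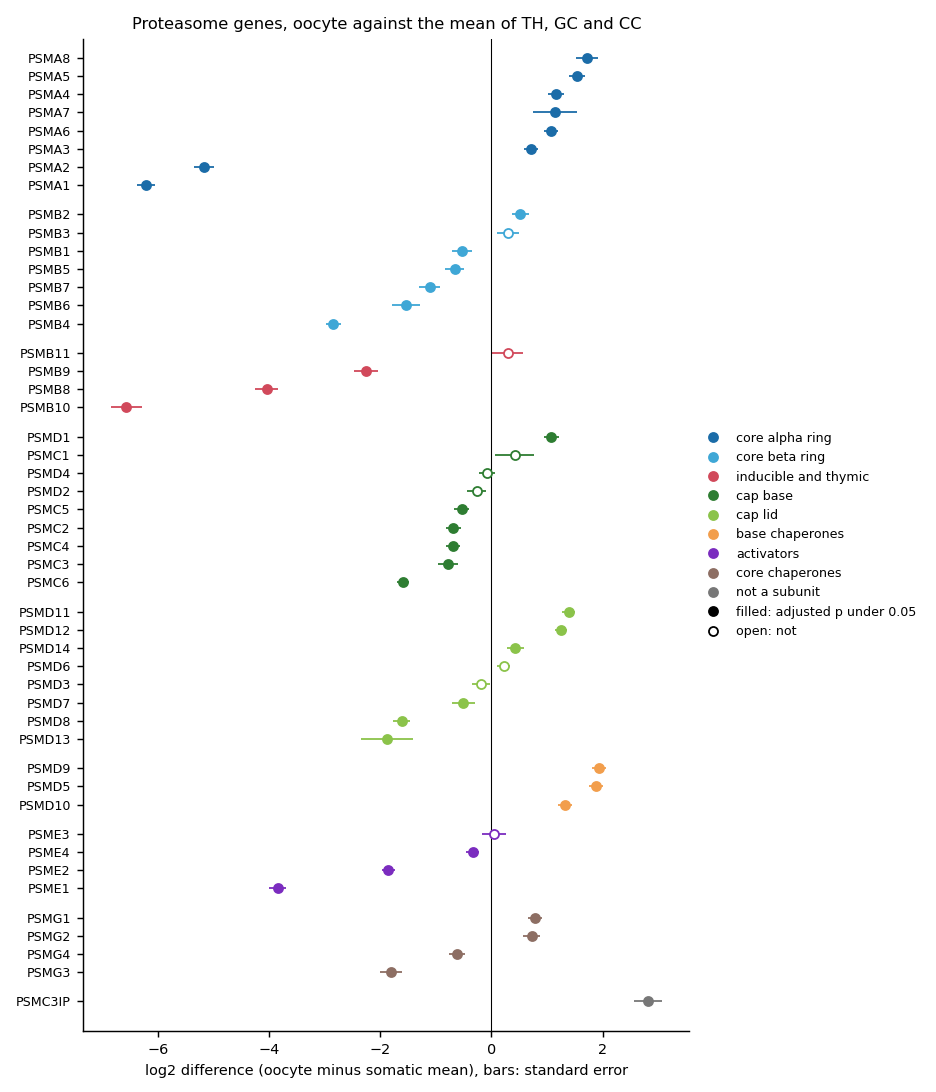
Log2 difference between the oocyte and the mean of TH, GC and CC for the 48 genes, by particle, with standard errors from limma (16 arrays). PSMA1 and PSMA2 lie far below the other alpha subunits, the inducible beta subunits PSMB8, PSMB9 and PSMB10 lie below 0, and the 3 base chaperones lie between 1.32 and 1.94.

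The alpha ring split into a large group that was higher in the oocyte and a pair that was far lower. Of its 7 constitutive subunits, 5 rose (PSMA3, PSMA4, PSMA5, PSMA6 and PSMA7) and 2 fell (PSMA1 and PSMA2), and the 7 form 1 ring in the particle. The level of PSMA1 was 2.98, 3.19, 2.92 and 3.34 in TH, 3.71, 3.26, 3.43 and 4.11 in GC, 3.60, 3.80, 3.96 and 3.83 in CC, 4.59, 3.92, 3.81 and 3.73 in CC after IVM, and -3.07, -2.73, -2.53 and -2.46 in oocytes. The level of PSMA2 was 0.18, 0.29, 0.02 and 0.36 in TH, 0.44, 0.32, 0.14 and 0.63 in GC, 0.65, 0.71, 0.89 and 0.67 in CC, 1.80, 1.62, 1.40 and 1.24 in CC after IVM, and -4.58, -5.55, -4.31 and -4.49 in oocytes. Both genes were on every oocyte array far below every somatic array, PSMA1 by a difference of -6.21 ± 0.16 (SE) or 74.1-fold (limma, adjusted p = 2.91e-14) and PSMA2 by a measured difference of -5.18 ± 0.18 (adjusted p = 8.08e-13). Background was clearly exceeded by PSMA1 on all 4 oocyte arrays and by PSMA2 on 3, replicate 2 being the exception on both of its probes. The probes of PSMA1, which share 10 bases only, gave -6.19 ± 0.17 and -6.24 ± 0.16, whereas those of PSMA2 overlap by 49 bases.

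PSMA5 and PSMA6, neighbors of these subunits in the ring, went the other way. The level of PSMA5 was 3.87, 4.36, 3.79 and 4.07 in TH, 4.55, 4.29, 4.39 and 5.0010 in GC, 4.66, 4.84, 4.95 and 4.79 in CC, 6.04, 5.31, 5.32 and 5.18 in CC after IVM, and 6.15, 5.83, 6.01 and 6.00 in oocytes. PSMA6 read 4.85, 4.9995, 4.83 and 4.65 in TH, 4.94, 4.64, 5.01 and 5.24 in GC, 5.06, 5.15, 5.12 and 4.96 in CC, 6.39, 5.70, 5.57 and 5.45 in CC after IVM, and 6.15, 5.80, 6.17 and 5.97 in oocytes. The oocyte arrays of both genes lay above all TH, GC and CC arrays and overlapped the IVM arrays. The difference was 1.53 ± 0.14 for PSMA5 (limma, adjusted p = 9.47e-08) and 1.07 ± 0.13 for PSMA6 (adjusted p = 1.3e-06). PSMA4 and PSMA3 had differences of 1.16 ± 0.14 and 0.72 ± 0.12 with no overlap with the TH, GC and CC arrays, and PSMA7 one of 1.15 ± 0.40 with overlap (adjusted p = 0.0178). PSMA7 did not pass against GC alone (0.91, limma, adjusted p = 0.104), and its TH arrays read -0.23, 0.15, -0.29 and 2.05. All 5 rises and both falls were called under the 4 other scalings. The range over those scalings was -6.43 to -5.39 for PSMA1 and -5.39 to -3.78 for PSMA2.

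In the beta ring, the 3 catalytic subunits and the structural PSMB4 were lower in the oocyte. Of the 7 constitutive subunits, 5 fell, 1 rose (PSMB2, 0.52 ± 0.16) and 1 did not pass (PSMB3, 0.30 ± 0.20, adjusted p = 0.179). The level of PSMB4 was 5.20, 5.24, 5.09 and 5.40 in TH, 5.62, 5.32, 5.45 and 5.83 in GC, 5.64, 5.68, 5.85 and 5.66 in CC, 6.88, 6.06, 6.21 and 5.96 in CC after IVM, and 2.26, 2.68, 2.98 and 2.68 in oocytes. Its oocyte arrays lay below every somatic array, by -2.85 ± 0.14 or 7.2-fold (limma, adjusted p = 2.45e-11). The catalytic subunits PSMB6 (beta 1), PSMB7 (beta 2) and PSMB5 (beta 5) differed by -1.54 ± 0.25, -1.11 ± 0.19 and -0.66 ± 0.17. In the deposited table PSMB6 kept its call and PSMB5 and PSMB7 did not. PSMB1 differed by -0.53 ± 0.18, and its call was lost both there and under quantile normalization, with values above 0 under both.

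**Figure D2:**
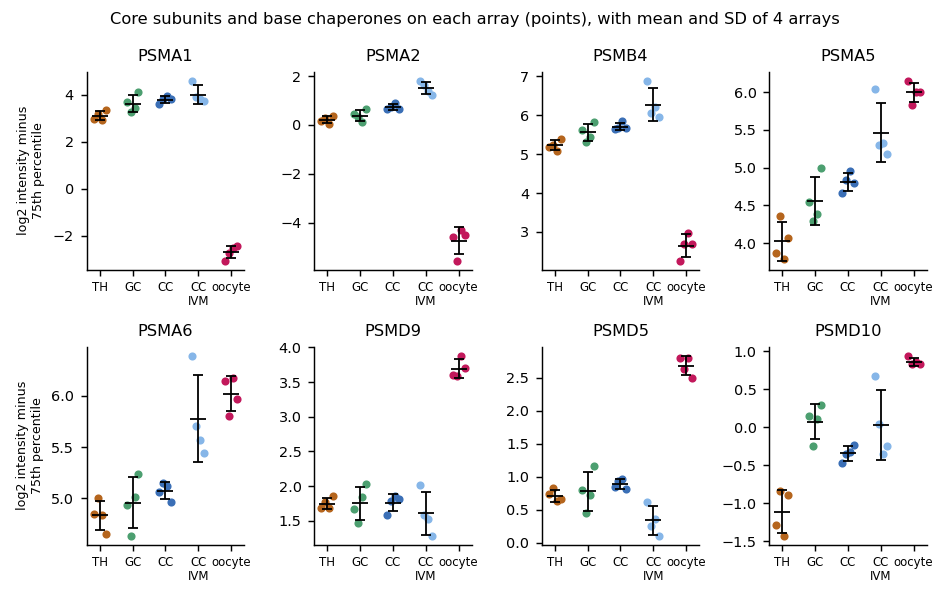
Log2 intensity minus the 75th percentile on each of the 20 arrays, by group, for 5 core subunits and 3 base chaperones, with the mean and SD of 4 arrays. PSMA1, PSMA2 and PSMB4 are lowest in oocytes, and PSMD9, PSMD5 and PSMD10 are highest there.

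The inducible subunits were also lower in the oocyte, and PSMB8 and PSMB9 were highest in TH. PSMB9 (beta 1i), PSMB10 (beta 2i) and PSMB8 (beta 5i) take the places of the 3 catalytic subunits in the immunoproteasome. PSMB8 (chr23:7113304-7116676) and PSMB9 (chr23:7127079-7133608) are neighbors on chromosome 23, in the major histocompatibility region. The level of PSMB8 was 0.36, 0.26, 0.65 and 0.49 in TH, -0.73, -1.35, -0.25 and -1.26 in GC, -0.81, -0.73, -0.08 and -0.24 in CC, -1.18, -2.28, -1.31 and -1.02 in CC after IVM, and -4.27, -4.03, -4.31 and -4.79 in oocytes. PSMB9 read 3.91, 3.82, 4.22 and 3.50 in TH, 0.38, 1.27, 1.65 and 1.77 in GC, 1.48, 1.69, 1.77 and 1.72 in CC, 2.38, 2.63, 1.75 and 2.17 in CC after IVM, and -0.09, 0.18, -0.21 and 0.16 in oocytes. For both genes the TH arrays lay above all GC and CC arrays, and the oocyte arrays lay below all others. The difference between TH and the mean of GC and CC was 2.40 ± 0.22 for PSMB9, a 5.27-fold higher level (limma, adjusted p = 5.74e-07), and 1.12 ± 0.22 for PSMB8 (adjusted p = 0.000916). The levels of both in GC and CC did not differ beyond their spread (PSMB9, 0.40 ± 0.26, adjusted p = 0.412).

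PSMB10 had another order. Its level was 1.46, 1.26, 1.53 and 2.71 in TH, 1.38, 0.53, 1.09 and 0.67 in GC, 1.84, 2.11, 2.32 and 2.45 in CC, 2.08, 1.16, 1.80 and 1.54 in CC after IVM, and -4.13, -5.46, -4.80 and -5.44 in oocytes. CC lay above GC without overlap, by 1.26 ± 0.34 (limma, adjusted p = 0.0293), while TH, with replicate 4 at 2.71, overlapped CC. The oocyte lay 4.78-fold below the somatic mean for PSMB9. The measured difference was -6.57 ± 0.28 for PSMB10 (limma, adjusted p = 6.65e-12), which exceeded background clearly on 3 of the 4 oocyte arrays, with 1 of its probes on only 2. It was -4.04 ± 0.21 for PSMB8 (adjusted p = 5.92e-11), where the dimmer of the 2 probes failed that mark on every oocyte array. On that probe TH lay at least 10.9-fold above the oocyte. PSMB11, the beta subunit of the thymus, was dim. It was well above background on all TH, GC and CC arrays, on 3 of 4 oocyte arrays and on 2 of 4 IVM arrays. Probe 1 passed that mark only on GC replicate 3 and oocyte replicates 1, 3 and 4. The gene had levels of -5.14, -5.66, -4.75 and -5.84 in TH, -4.58, -5.50, -4.12 and -5.32 in GC, -5.63, -5.21, -4.44 and -5.53 in CC, -5.95, -5.14, -5.92 and -5.64 in CC after IVM, and -4.42, -5.22, -4.96 and -4.79 in oocytes, and its groups overlapped.

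Some markers of blood cells and vessels were also higher in TH. Of 12 leukocyte markers, 9 were higher in TH than in GC and CC, and their summed linear level was 3.56 to 7.43 in TH, 0.583 to 1.87 in GC and 0.375 to 1.02 in CC. PTPRC, which marks all leukocytes, was well above background on all 4 TH arrays and on no GC or CC array. All 7 endothelial markers were higher in TH, with sums of 5.53 to 9.99 against at most 1.00 in GC and CC. In oocytes the leukocyte sums were 2.42 to 3.23 and the endothelial sums 3.14 to 4.79, above those of GC and CC. A few markers made up these sums. Against the somatic mean, 10 of the 12 leukocyte markers were lower in the oocyte and 2 higher. Of the 7 endothelial markers, 5 were lower there and 2 higher. Of 3 erythroid markers, 1 was higher in TH, 1 lower and 1 did not pass, with sums of 11.7 to 23.6 in TH, 14.4 to 29.1 in GC and 24.8 to 47.7 in CC. Of 13 genes of antigen processing, 4 were higher in TH (14.3% of all genes were) and 2 lower (18.5% of all genes). B2M, the light chain of the class I molecule, was higher by 2.59 ± 0.15. The part of these cells in the levels of PSMB8 and PSMB9 was not tested.

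The activator PA28, a ring of PSME1 and PSME2 that caps the core without ATP, was also low in the oocyte. The level of PSME1 was 4.30, 4.17, 4.29 and 4.44 in TH, 4.64, 3.73, 4.29 and 4.14 in GC, 4.60, 4.68, 5.01 and 4.97 in CC, 5.65, 4.44, 4.50 and 4.66 in CC after IVM, and 0.64, 0.43, 0.69 and 0.60 in oocytes. PSME2, encoded beside it on chromosome 10, read 4.87, 4.92, 4.75 and 4.89 in TH, 4.42, 3.93, 4.42 and 4.45 in GC, 4.65, 4.74, 4.92 and 4.83 in CC, 5.96, 4.73, 5.02 and 4.84 in CC after IVM, and 2.59, 2.86, 2.83 and 2.91 in oocytes. The oocyte arrays lay below all others for both genes, by -3.85 ± 0.15 for PSME1 (14.4-fold, limma, adjusted p = 1.89e-12) and -1.86 ± 0.12 for PSME2 (adjusted p = 1.01e-09). CC lay above GC in PSME1, by 0.62 ± 0.18 (adjusted p = 0.0433), with GC replicate 1 inside the CC range. The difference between TH and the mean of GC and CC was -0.21 ± 0.16 for PSME1 and 0.31 ± 0.13 for PSME2 and passed for neither (adjusted p = 0.389 and 0.0752).

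**Figure D3:**
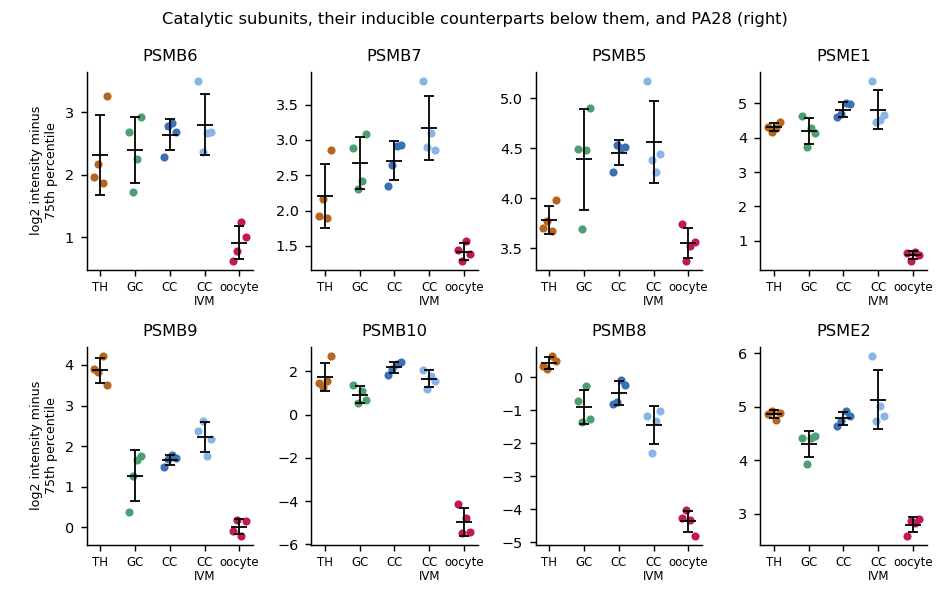
Log2 intensity minus the 75th percentile on each array for the catalytic beta subunits (top), the inducible subunits that replace them (below each) and the PA28 subunits PSME1 and PSME2, with the mean and SD of 4 arrays. The oocyte has the lowest mean in all 8 panels, with some overlap in PSMB5, and TH is the highest for PSMB9 and PSMB8.

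Of the nuclear activators, PSME4 was lower in the oocyte by a small difference and PSME3 did not pass. PSME3 (PA28 gamma) had levels of -0.82, -0.59, -1.01 and 0.27 in TH, -0.18, -0.46, -0.48 and 0.36 in GC, -0.95, -0.48, -0.50 and -0.27 in CC, 0.75, 0.36, 0.46 and 0.37 in CC after IVM, and -0.12, -0.57, -0.45 and -0.39 in oocytes, and its difference of 0.04 ± 0.22 did not pass (limma, adjusted p = 0.854). PSME4 (PA200), which acts on histones, read 1.54, 1.43, 1.38 and 1.45 in TH, 1.71, 1.99, 1.72 and 1.71 in GC, 2.11, 1.71, 1.85 and 1.79 in CC, 2.37, 2.38, 2.56 and 2.70 in CC after IVM, and 1.25, 1.64, 1.28 and 1.30 in oocytes. Its oocyte arrays overlapped the somatic range, and the difference of -0.33 ± 0.12 (adjusted p = 0.0186) lost its call without oocyte replicate 1 (-0.29), 3 (-0.30) or 4 (-0.31) and was 0.32 in the deposited table. Against TH alone PSME4 did not pass (-0.08, limma, adjusted p = 0.604).

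In the cap, the ATPases of the base were lower in the oocyte and the lid was mixed. Of the 6 ATPases PSMC1 to PSMC6, 5 fell and PSMC1 did not pass. PSMC6 fell most, with levels of 2.75, 2.86, 2.66 and 2.89 in TH, 3.22, 3.15, 3.38 and 3.40 in GC, 3.37, 3.42, 3.50 and 3.42 in CC, 4.49, 3.81, 3.66 and 3.54 in CC after IVM, and 1.41, 1.57, 1.84 and 1.51 in oocytes and no overlap between the oocyte and the somatic arrays (-1.59 ± 0.11, limma, adjusted p = 2.15e-09). The other 4 ATPases that fell did so by 0.54 to 0.78, and none of these 4 kept its call in the deposited table. Among the other base subunits, the scaffold PSMD1 rose (1.08 ± 0.14), while the scaffold PSMD2 (-0.27 ± 0.17) and the ubiquitin receptor PSMD4 (-0.08 ± 0.14) did not pass. The level of PSMD2 was 4.09, 4.18, 3.95 and 4.53 in TH, 4.68, 4.18, 4.52 and 5.15 in GC, 4.51, 4.92, 4.98 and 5.17 in CC, 5.31, 5.09, 4.89 and 5.29 in CC after IVM, and 4.32, 4.17, 4.28 and 4.46 in oocytes, with the oocyte arrays inside the somatic range.

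Of the 8 lid subunits, 3 rose, 3 fell and 2 (PSMD3 and PSMD6) did not pass. PSMD11 and PSMD12 had the largest rises of the lid, 1.39 ± 0.12 and 1.26 ± 0.11, with no overlap. The level of PSMD12 was 0.13, 0.29, 0.01 and 0.22 in TH, 0.30, 0.56, 0.38 and 0.78 in GC, 0.53, 0.69, 0.56 and 0.63 in CC, 2.27, 2.17, 2.06 and 2.22 in CC after IVM, and 1.72, 1.69, 1.64 and 1.68 in oocytes. PSMD11 read 2.56, 2.85, 2.56 and 2.64 in TH, 3.14, 3.31, 3.13 and 3.68 in GC, 3.47, 3.58, 3.35 and 3.42 in CC, 4.07, 4.30, 4.21 and 4.07 in CC after IVM, and 4.52, 4.40, 4.59 and 4.62 in oocytes. The deubiquitinase PSMD14 rose by 0.43 with overlap, and its call was lost under 2 of the 4 other scalings. It passed against TH alone (0.97, limma, adjusted p = 0.000289). Against GC alone (0.29) and CC alone (0.04) it did not pass (limma, adjusted p = 0.18 and 0.841). PSMD8 fell by 1.62 with no overlap, PSMD7 by 0.51 and PSMD13 by 1.88 with overlap, PSMD13 varying widely among the TH arrays (SD 1.49). Its TH replicate 4 read 1.22 and the other TH arrays -1.83 to -1.63. PSMD7 did not pass against TH alone (-0.21) or GC alone (-0.48) (limma, adjusted p = 0.446 and 0.0966).

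All 3 chaperones of the base rose in the oocyte. PSMD5, PSMD9 and PSMD10 hold the ATPases apart from the core until the base is built, and they leave before the particle is complete. PSMD5 read 0.73, 0.83, 0.63 and 0.66 in TH, 0.80, 0.45, 0.72 and 1.16 in GC, 0.85, 0.93, 0.96 and 0.81 in CC, 0.62, 0.25, 0.37 and 0.11 in CC after IVM, and 2.80, 2.63, 2.80 and 2.49 in oocytes. The level of PSMD9 was 1.68, 1.77, 1.68 and 1.86 in TH, 1.68, 1.47, 1.85 and 2.03 in GC, 1.58, 1.79, 1.86 and 1.81 in CC, 2.02, 1.59, 1.53 and 1.29 in CC after IVM, and 3.60, 3.58, 3.88 and 3.70 in oocytes. PSMD10 read -1.28, -0.84, -1.42 and -0.89 in TH, 0.15, -0.24, 0.11 and 0.30 in GC, -0.47, -0.34, -0.32 and -0.23 in CC, 0.68, 0.04, -0.35 and -0.24 in CC after IVM, and 0.94, 0.83, 0.87 and 0.83 in oocytes. The oocyte arrays lay above every somatic array for each of them. The differences were 1.94 ± 0.12 for PSMD9 (limma, adjusted p = 5.33e-10), 1.89 ± 0.13 for PSMD5 (adjusted p = 1.44e-09) and 1.32 ± 0.13 for PSMD10 (adjusted p = 2.14e-07). The probes of these genes share at most 5 bases, and within a gene they differed by at most 0.03 in the oocyte difference. All 3 were called under the 4 other scalings, with 1.11 as the lowest value of any of them (PSMD10). PAAF1, a base chaperone that is no member by name, read 2.14, 2.15, 2.25 and 2.08 in oocytes. These values lay inside the span of its TH, GC and CC arrays.

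The chaperones of the core did not move together. Of the 4, which pair and guide the alpha subunits, PSMG1 (0.79 ± 0.12) and PSMG2 (0.72 ± 0.15) were higher in the oocyte. PSMG3 (-1.81 ± 0.20) and PSMG4 (-0.62 ± 0.14) were lower, PSMG4 with a value of 0.04 and no call in the deposited table. Against GC alone, PSMG1 (0.33) and PSMG4 (-0.35) did not pass (limma, adjusted p = 0.0688 and 0.08). PSMG1 and PSMG2 bind each other, as do PSMG3 and PSMG4. POMP, the other core assembly factor and no member by name, did not pass (0.18 ± 0.13, adjusted p = 0.206). PSMC3IP, which is no subunit, was dim in the somatic cells and higher in the oocyte by 2.82 ± 0.25 (limma, adjusted p = 4.09e-08), with levels of -5.95, -5.40, -5.35 and -4.09 in TH, -4.62, -4.93, -5.04 and -5.03 in GC, -5.31, -5.09, -4.53 and -5.03 in CC, -3.90, -4.53, -3.37 and -4.75 in CC after IVM, and -1.99, -2.39, -2.23 and -2.24 in oocytes. The arrays did not overlap, and its value ranged from 0.88 to 2.91 over the other scalings.

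At the level of single probes, 34 of the 100 were higher in the oocyte (29.6% of all probes were) and 46 lower (34.8% of all probes). In 36 of the 48 genes all probes were called the same way, in 7 no probe was called, and in PSMA8, PSMB1, PSMD6 and PSMD7 some were. The PSMB11 probes had values of opposite sign (-0.52 and 1.10), neither called. The median spread between the probes of a gene was 0.05 where they overlapped and 0.14 in the 24 genes where they did not.

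PSMA8, the alpha subunit of germ cells that stands in for PSMA7 in the testis, was lit by 1 of its probes only. Probe 1 stayed at background on all 20 arrays. Probe 2 read -7.33, -7.39, -6.72 and -7.28 in TH, -7.26, -7.09, -6.74 and -5.43 in GC, -7.56, -6.89, -7.38 and -7.36 in CC, -6.00, -6.63, -7.13 and -6.36 after IVM, and -3.38, -3.13, -2.61 and -3.17 in oocytes. It was well above background on all 4 oocyte arrays and on only 1 of the 16 others, GC replicate 4. The oocyte was at least 4.64-fold higher than TH, at least 5.06-fold higher than CC and at least 3.19-fold higher than CC after IVM on this probe. These bounds set each dim array at its lowest signal well above background. The measured means behind them were -3.07 for oocytes, -7.18 for TH, -7.30 for CC and -6.53 for CC after IVM. The fit over probes gave an adjusted p of 3.63e-09 (limma) against the somatic mean, which is mostly background, and no exact difference is given. The gene value, a median over both probes, was -7.42, -7.48, -7.30 and -7.32 in TH, -7.34, -7.19, -6.96 and -6.88 in GC, -7.72, -7.27, -7.48 and -7.45 in CC, -6.72, -6.74, -7.24 and -6.69 in CC after IVM, and -6.19, -4.73, -5.83 and -5.63 in oocytes. It averages a lit and a dark probe, and its difference of 1.72 ± 0.20 turned to -0.59 with normexp background correction. PSMA7 is a close relative, and hybridization of its transcript to this probe was not tested.

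PSMD11 had probes called in opposite directions. Probe 2, common to both annotated transcripts, differed by 1.34 ± 0.13 and probe 3, for the second of them, by 1.43 ± 0.13. Probe 1, for the first transcript alone, read -5.75, -4.24, -5.64 and -4.15 in TH, -3.03, -2.35, -3.21 and -2.95 in GC, -2.46, -2.65, -2.58 and -2.79 in CC, -4.60, -3.70, -2.86 and -3.48 after IVM, and -8.94, -6.33, -8.44 and -8.06 in oocytes. It was well above background on all GC and CC arrays, on 2 TH arrays, on 3 IVM arrays and on no oocyte array. GC was at least 8.10-fold and CC at least 9.71-fold above the oocyte on it, from measured means of -2.88, -2.62 and -7.94. The same probe was called lower in TH than in GC and CC (limma over probes, adjusted p = 0.000987) and lower after IVM than in CC (adjusted p = 0.0341), with the TH and IVM arrays at background included at their measured values.

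**Figure D4:**
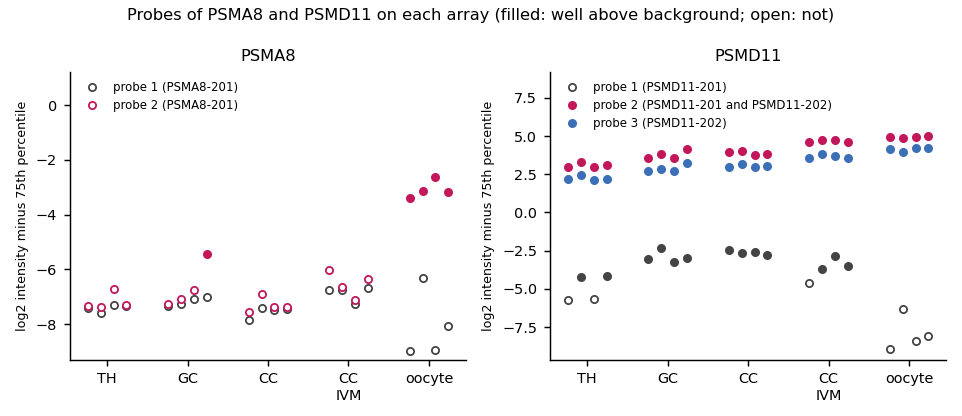
Log2 intensity minus the 75th percentile for each probe of PSMA8 (left) and PSMD11 (right) on each of the 20 arrays, filled where well above background. PSMA8 probe 2 is lit in oocytes while probe 1 is dark throughout, and PSMD11 probe 1 is dark in oocytes while probes 2 and 3 are brightest there.

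Among the somatic cells, TH had lower levels of many constitutive subunits and higher levels of PSMB8 and PSMB9. Against the mean of GC and CC, 19 of the 48 genes were lower in TH (39.6%, against 18.5% of all genes) and 2 higher (4.17%, against 14.3%). Within slides, with 2 arrays per group, 2 and 7 were lower. The lower genes held 11 of the 17 cap subunits, 5 of the 14 constitutive core subunits, PSMD10, PSME4 and PSMG1. The largest differences were those of the ATPase PSMC4 (-1.13 ± 0.13, limma, adjusted p = 7.63e-06), the lid subunit PSMD3 (-0.98 ± 0.17), the chaperone PSMD10 (-0.98 ± 0.14) and PSMD14 (-0.81 ± 0.16). The TH arrays of these 4 lay below all GC and CC arrays, as they did for 12 of the 19 (10.3% of all genes were lower in TH without overlap). All 19 kept their sign under the other scalings, and 13 kept their call under all 4.

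Few genes differed between GC and CC. CC was higher for 3 genes, PSMB10, PSMC4 (0.67 ± 0.15) and PSME1 (5.28% of all genes were higher), and lower for 0 by limma (4.61% of all genes were lower). At an unadjusted p below 0.05, 6 were higher and 2 lower. No gene passed within either slide, and without GC replicate 2 or 3 or CC replicate 2, 3 or 4 the count of 3 became 1.

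After 4 h of IVM, alpha and lid subunits of CC rose and no constitutive beta or base subunit passed, though the difference between particles was not tested. Of the 48 genes 13 were higher after IVM (27.1%, against 30.3% of all genes) and 2 lower (4.17%, against 15.5%), so the share that rose was near that of all genes. The higher genes were 4 of 7 alpha subunits, PSMA8, 5 of 8 lid subunits, PSME3, PSME4 and PSMG3, with 0 of 7 beta subunits and 0 of 9 base subunits. In the last 16, 14 differences were above 0 and ranged up to 0.57. PSMD12 rose most, from 0.53, 0.69, 0.56 and 0.63 in CC to 2.27, 2.17, 2.06 and 2.22, a 2.98-fold difference without overlap (1.58 ± 0.16, limma, adjusted p = 0.000101). This lid subunit was thereby above its oocyte arrays.

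PSMA3 rose by 1.15 ± 0.25 (limma, adjusted p = 0.00589), from 2.34, 2.39, 2.70 and 2.45 in CC to 4.24, 3.62, 3.21 and 3.39. The nuclear activator PSME3 rose by 1.03 ± 0.21 (adjusted p = 0.00425), PSMA2 by 0.78 ± 0.19 (adjusted p = 0.0106) and PSMD11 by 0.71 ± 0.17 (adjusted p = 0.01). In each of these the IVM arrays lay above all CC arrays. PSMD12, PSMA3, PSME3 and PSMA2 were called under all 4 other scalings, and 9 of the 13 were not. For PSMA8 neither CC nor IVM arrays were well above background, so its call has no fold, and the call was lost without CC replicate 1 (0.55), 3 (0.63) or 4 (0.64) or IVM replicate 1 (0.59) or 4 (0.58). PSME4 rose by 0.63 ± 0.18, and its call was lost without CC replicate 2 (0.58), 3 (0.63) or 4 (0.61) or IVM replicate 4 (0.57).

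The falls after IVM were PSMB8 by 0.98 and the base chaperone PSMD5 by 0.55, each without overlap at the gene level (limma, adjusted p = 0.0278 and 0.0332). The PSMB8 value includes its dimmer probe, which was not well above background on IVM replicates 1 and 2. Its brighter probe read 2.33, 2.17, 2.90 and 2.72 in CC and 2.19, 1.67, 1.68 and 1.93 after IVM, with overlap. The IVM differences of these probes lay 0.64 apart. PSMB9 (0.57 ± 0.22) and PSMB10 (-0.53 ± 0.24) did not pass, but PSMB9 did without IVM replicate 3 (0.73) and PSMB10 without IVM replicate 1 (-0.68). The PSMB8 call was lost without CC replicate 3 (-0.85) or 4 (-0.91). The PSMD5 call was lost without CC replicate 1 (-0.56), 2 (-0.54), 3 (-0.53) or 4 (-0.58) or IVM replicate 2 (-0.52) or 4 (-0.47). From the deposited values, 6 genes were higher and 9 lower, without the share of all genes beside them. The median of the 48 was -0.05 there in place of 0.38. Without CC replicate 1, 2, 3 or 4 the higher genes were 7, 7, 6 and 6 and the lower ones 1, 1, 0 and 0, and without IVM replicate 1 the higher ones were 8. Without IVM replicate 4, 1 was lower. All IVM arrays are on a slide of their own, so IVM and slide cannot be told apart. Of the oocyte markers 4 of 6 were lower after IVM (15.5% of all genes were), with sums of 0.161 to 0.560 against 0.561 to 3.01 in CC. Of the leukocyte markers 4 of 12 were higher (30.3% of all genes were), with sums of 1.13 to 2.73 against 0.375 to 1.02. Their part in these changes was not tested.

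**Figure D5:**
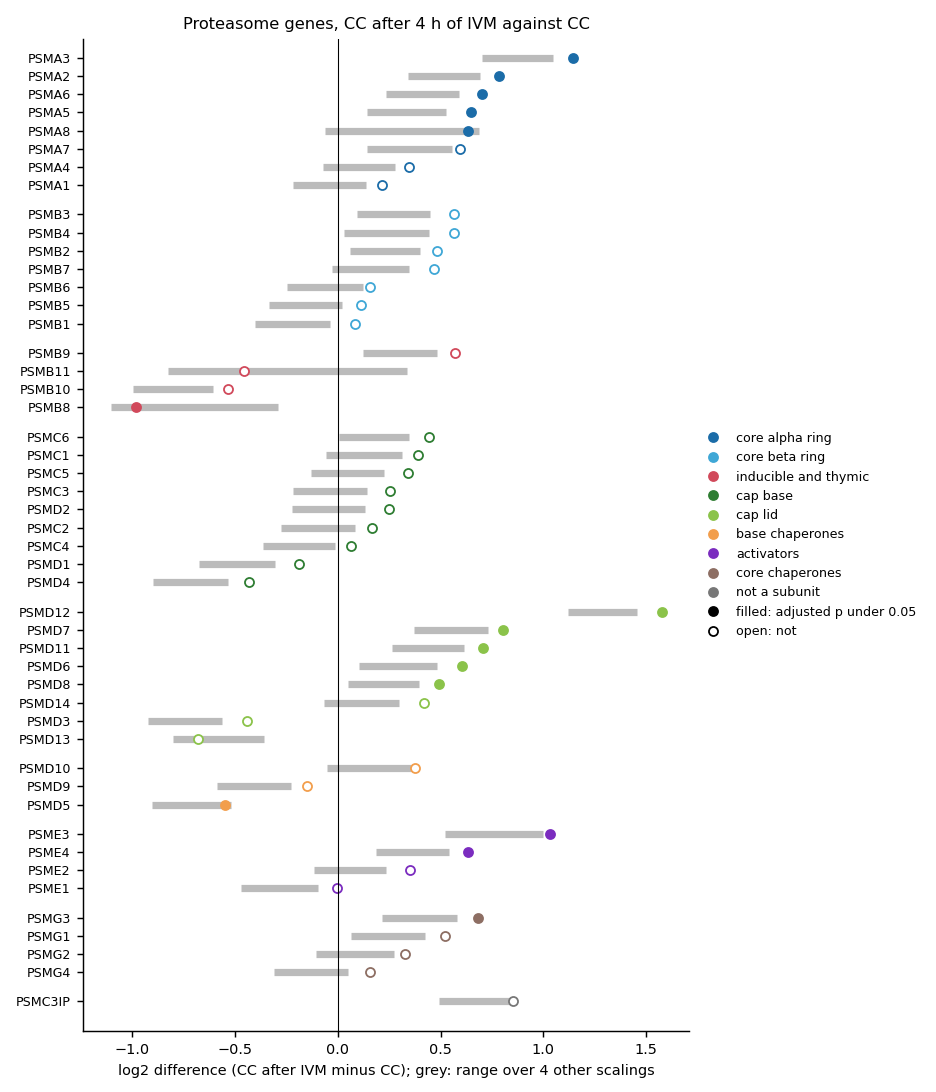
Log2 difference between CC after IVM and CC for the 48 genes by particle (points, filled where the adjusted p was under 0.05) with the range over the 4 other scalings in grey. Most grey bars lie to the left of their point, and PSMD12, PSMA3, PSME3 and PSMA2 stay above 0 under each scaling.

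PSMA1, PSMA5, PSMA6, PSMC6 and PSMD2 are the subunits whose proteins the study lists for the vesicles of follicular fluid. Their transcripts were well above background on all 20 arrays. They did not share a pattern: PSMA5 and PSMA6 were highest in oocytes among the immature groups, PSMA1 and PSMC6 lowest there, and PSMD2 within the somatic range.

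Genes that work with the proteasome but have other names were followed as fixed lists. Of 17 such factors measured, 8 were higher in the oocyte (32.9% of all genes were) and 4 lower (38.3% of all genes). The higher ones included NGLY1 (3.68 ± 0.14), which activates the transcription factor NFE2L1 of the proteasome genes, AKIRIN2 (3.11 ± 0.10), which carries proteasomes into the nucleus, and the ubiquitin receptor ADRM1 (2.12 ± 0.39). NFE2L1 itself was lower (-1.24 ± 0.16), as was KIAA0368 (ECM29), which binds assembled particles (-1.66 ± 0.15). After IVM 7 of the 17 were higher (30.3% of all genes were) and 2 lower (15.5% of all genes). Among the higher ones were ZFAND2A (1.75 ± 0.34), the deubiquitinase USP14 (1.18 ± 0.16) and POMP (1.04 ± 0.21). The lower ones were PAAF1 (-1.71 ± 0.20) and NGLY1 (-1.22 ± 0.20).

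Of 14 genes that supply or carry ubiquitin, 4 were higher in the oocyte (32.9% of all genes were) and 7 lower (38.3% of all genes). RPS27A, which codes for ubiquitin joined to a ribosomal protein, differed by -2.28 ± 0.17, and the unfolding ATPase VCP by -1.89 ± 0.22. The activating enzyme UBA1 was higher by 0.75 ± 0.12. Of the 13 antigen processing genes, 12 were lower in the oocyte and NLRC5 did not pass, with the largest differences in ERAP2 (-5.64 ± 0.19) and TAP2 (-5.58 ± 0.19). The median difference was -2.84 over this list and -0.52 over all genes. Under the other scalings the calls of TXNL1, RAD23B, UBE3C and B2M in the oocyte were each lost at least once, and UBE3C reached 0.16.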

How the data were processed

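RNA of 20 samples was hybridized to one-color bovine arrays, each labeled from 200 ng of RNA. Deposited by the authors were scanner files (Agilent Feature Extraction 10.7.3.1) with intensity per spot and marks for outliers and for signal well above background, and a table of log2 values. The deposited log2 values equal log2 of the median signal minus the array median, within 5.0e-09, without background subtraction. Probes are annotated on UMD 3.1 in the files.

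From these, the 75th percentile of log2 processed signal was subtracted per array, outlier spots (0 to 23 per array) were left out, and each gene was given the median of its spots. Limma 3.58.1 (R 4.3.3, data.table package version 1.17.8) fitted TH, GC, CC and oocytes together and CC with IVM apart. The comparisons share the CC arrays. The Benjamini-Hochberg adjustment ran over the 22550 genes (or 51307 probes), with 0.05 as threshold. The fits were tested on simulated data. Tables and plots used Python 3.11.15, pandas 2.3.3, numpy 2.4.6 and matplotlib 3.10.9. Of 9779 unnamed spots, 734 were named by accession.

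The values of 1 listed gene are not reported here. The members and lists were chosen with earlier results of these data known. Values on every array are given for the 5 largest rises and 5 largest falls without overlap in the oocyte and after IVM, for PSMB8 to PSMB11, PSMA8 and PSME1 to PSME4, and for the subunits listed for vesicles. Values of PSMB4 and PSMD10 were added after they were seen. Replicate arrays limit the precision to 4 per group. Alternatives covered scaling, background correction, spot summary, dim genes, slide, replicate number and single arrays. Slide as a random block and CC arrays of a single slide were added after seeing the data.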

Additional observations from a re-analysis of the deposited data

Results flagged for a closer look

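Among the 21 genes with values on every array, 105 groups of 4 arrays were examined for an array far from the other 3, and 4 were found, where chance gives about 1 in 20. PSMA8 was at -7.24 in IVM replicate 3, against -6.74 to -6.69 in the others, all not well above background. PSME2 was at 3.93 in GC replicate 2, against 4.42 to 4.45. PSME4 was at 1.99 in the same array, GC replicate 2, against 1.71 to 1.72. In oocyte replicate 2 PSME4 was at 1.64, against 1.25 to 1.30.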

How the results depend on the processing

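Counts under the alternatives stand without the share of all genes called under the same setting. The oocyte counts of 17 higher and 23 lower genes were within 1.5 times under the alternatives run, except that the deposited table gave 13 lower. Leaving out single arrays gave 16 to 19 higher, 21 to 23 lower, 40 to 46 by the F-test, and 2 higher and 13 to 23 lower in TH.

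The median oocyte difference of the 48 genes turned from -0.23 to 0.001 under quantile normalization and to 0.31 in the deposited table, where the median IVM difference turned to -0.054.

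For IVM, the 13 higher and 2 lower genes became 7 higher under quantile normalization and with the percentile over detected probes, 20 and 4 with normexp, 6 and 9 in the deposited table, and 24 and 6 with slide as a random block (added after seeing the data, as were the next). With the CC arrays of slide 1 alone, 3 were higher and 0 lower, and with those of slide 2 alone, 1 and 0. The random block cannot separate slide from IVM, since no slide holds both groups, so its larger counts do not allow for a slide difference. The brightest probe gave 1 lower. Without single arrays, 6 to 15 were higher and 0 to 3 lower. A fixed slide block and within-slide fits could not be run for IVM.

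Replicate numbers were not used to pair the samples. Among the TH, GC, CC and oocyte arrays, deviations of same-numbered arrays correlated at -0.26 to 0.44 (median 0.12). Others correlated at -0.50 to 0.40 (median -0.02). Same-numbered arrays of these groups share a slide, so the values cannot show whether they share animals or pools. With replicate number as a block, 6 genes were higher and 1 lower after IVM, and no other count left 1.5 times the value given.

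In TH, the percentile over detected probes gave 4 higher. Within slide 1, 28 genes passed the F-test, 2 were lower in TH and 0 higher in CC. Within slide 2, 1 was higher and 7 lower in TH and 0 higher in CC. CC against GC gave 1 lower under quantile normalization and with the percentile over detected probes, and 6 higher in the deposited table, with 1 to 3 higher without single arrays. The methods' analysis of variance passed 43 of the 48 genes, and 15755 of all 22550 genes.

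Of the genes called in the oocyte, PSMB1, PSMC5, PSMD7, PSME4, PSMG4 and PSMA8 changed sign under at least 1 other scaling, as did 5 of the 8 not called there and 18 of the 33 not called after IVM. Of those with values on every array, with normexp PSMA8 (-0.59) and PSMB11 (-0.94) turned in the oocyte and PSMB11 after IVM (0.34). PSMB11 was -0.52 in the oocyte with the brightest probe, PSMA8 -0.061 after IVM under quantile normalization, and PSME4 0.32 in the oocyte in the deposited table. The causes were not tested.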
